A study of Mus musculus with 5 samples.

Results

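The genes described here are the 19 that had clearly lower array values in all 3 Pdx1cKO pancreata than in both control pancreata and whose symbols are not among the digestive enzyme and granule families usually listed for the acinar cell. They were chosen on those values themselves. A probe set was taken when its lower control intensity was 100 or more and its highest Pdx1cKO intensity was at most 0.5 of that lower control. Amylases, lipases and colipase, a phospholipase, carboxypeptidases, elastases, chymotrypsins, trypsinogens named Prss, Try, Gm5771 or 2210010C04Rik, Reg, Spink and trefoil peptides, keratins, and the granule genes Sycn, Dmbt1, Cuzd1, Gp2, Serpini2 and Zg16 were left out by symbol. Of 21789 probe sets with 1 gene symbol, 7773 had both controls at or above the floor of 100. Among these, 45 (0.579%) met the limits. The left-out families held 26 of them and the remaining 19 probe sets, 1 for each of 19 genes, are the subject here. In the opposite direction 51 of 8101 probe sets (0.63%) met the mirrored limits. Because the difference between the groups chose the genes, the intensities below describe what was chosen and no test of that difference is given for them.

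Pdx1cKO mice were Elastase-Cre;Pdx1 loxP/loxP mice, in which the Elastase promoter drives Cre and so removes Pdx1 from exocrine cells, while endocrine cells are not its target. Whole pancreata were taken on postnatal day 1 from 3 Pdx1cKO mice and 2 control mice from 1 litter according to the labels, and each pancreas was hybridised to a mouse whole-transcript array. The controls were labelled as not recombined, with their exact alleles not given in the sources used here. Arrays are named Pdx1cKO 1, 2 and 3 and controls 1 and 2, and values are given in that order. The arrays had almost the same scale, with median intensities of 61.6, 61.9 and 61.0 in Pdx1cKO pancreata and 61.0 and 61.2 in controls. Pdx1 itself had 48.4, 48.4 and 42.9 in Pdx1cKO pancreata, against 67.9 and 112.7 in controls. Its log2 fold change was −0.91 (SE 0.255, limma, adjusted p = 0.385), and the place of its probes relative to the deleted part is not stated. The groups did not overlap for Pdx1, as was the case for 11.7% of all 19938 genes in this direction and 12% in the other.

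The tissue values behind these labels differed in more than the exocrine genes. All 8 acinar markers measured had lower values in every Pdx1cKO pancreas, with medians of 124, 152 and 299.7, against 7375 and 3827 in controls, and most of them belong to the families left out. All 9 liver markers were higher in every Pdx1cKO pancreas, with medians of 3304, 4557 and 1345, against 222 and 401 in controls. The 9 granulocyte markers were also all higher, with medians of 238, 405 and 139 in Pdx1cKO pancreata, against 48.3 and 48.9 in controls, and so were the 5 erythroid markers, with medians of 238, 285 and 117 in Pdx1cKO pancreata, against 67.9 and 68.4 in controls. Most stomach markers were high in control 2 alone, with 8 of 10 stomach markers more than 2-fold above every other array and list medians of 59.4, 58.2 and 57.6 in Pdx1cKO pancreata, against 45.8 in control 1 and 639 in control 2. Gkn2, a gastric mucosal peptide, had 25.1, 25.9 and 26.4 in Pdx1cKO pancreata, against 26.4 and 3014 in controls. The 9 intestine markers had medians of 36.6, 39.8 and 59.3 in Pdx1cKO pancreata, against 40.4 in control 1 and 138 in control 2. Xist, which female cells transcribe, had 622, 349 and 44.9 in Pdx1cKO pancreata, against 53.4 and 33.5 in controls. Eif2s3y, a gene of the Y chromosome, had 22.4, 24.9 and 114 in Pdx1cKO pancreata, against 107 and 151 in controls. Pdx1cKO 1 and 2 thus had female values and Pdx1cKO 3 and both controls male values, so sex was not balanced between the groups. In whole tissue, fewer cells of a type and less RNA per cell cannot be told apart.

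The acinar cell of the pancreas makes and secretes more protein than almost any other cell. Its enzymes are folded and cross-linked in the endoplasmic reticulum with the help of protein disulfide isomerases, carried to the Golgi in vesicles that p24 proteins help to load, stored in zymogen granules and released when hormones or nerves raise cytosolic calcium. Acinar genes are known to be driven by PTF1, in which the bHLH proteins PTF1A and TCF3 or TCF12 bind an E-box and RBPJL or RBPJ binds a nearby TTCCCA core. Many genes that serve this machinery are not enzymes themselves, and several of the 19 genes are known from it.

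Promoter sequences were examined because the limits on intensity made no use of them. RefSeq promoter sequences (GRCm38.p6, 250 bases before to 50 after a gene start) were found for 14 of the 19 genes, as 16 promoters. Erp27, Gm5409, Lgals12, Slc16a5 and St6galnac2 were not matched. An E-box of the form CACCTG, read on either strand, was present in 9 of the 16 promoters (56.2%) and in 20.2% of all 32851 promoters of that length. It was also in 13 of 20 promoters of the left-out families, so it was not particular to the chosen genes. The 9 promoters of chosen genes belonged to 8 genes, namely Aqp12, Gatm, Muc1, Pdia2, Slc26a9, Slc28a3, Tmed6 and Tmem184a. CAGCTG was in 4 of 16 promoters (25.0%) against 16.3% of all, and TTCCCA in 5 of 16 (31.2%) against 25.6%. In the left-out families CAGCTG was in 6 of 20 promoters and TTCCCA in 10 of 20. An E-box of either form together with TTCCCA was found in 4 of 16 (25.0%) against 8.64% of all, and in 8 of 20 promoters of the left-out families. The 4 genes with both were Aqp12, Nupr1, Pdia2 and Tmem184a, whose promoters are printed here on the gene's own strand to show how differently the letters are placed. Capitals mark the E-box CACCTG (written as CAGGTG where it lies on the other strand), the E-box CAGCTG, which reads the same on both strands, and the core TTCCCA (written as TGGGAA on the other strand), and the start lies after the first 250 bases.
Aqp12, chr1:93006084-93006383, plus strand: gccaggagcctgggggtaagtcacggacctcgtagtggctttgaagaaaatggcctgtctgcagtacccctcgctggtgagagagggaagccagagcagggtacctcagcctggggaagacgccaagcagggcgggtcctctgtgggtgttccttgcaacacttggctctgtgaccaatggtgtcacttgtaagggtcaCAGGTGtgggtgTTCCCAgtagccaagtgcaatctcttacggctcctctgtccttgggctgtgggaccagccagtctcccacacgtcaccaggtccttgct
Nupr1, chr7:126625421-126625720, minus strand: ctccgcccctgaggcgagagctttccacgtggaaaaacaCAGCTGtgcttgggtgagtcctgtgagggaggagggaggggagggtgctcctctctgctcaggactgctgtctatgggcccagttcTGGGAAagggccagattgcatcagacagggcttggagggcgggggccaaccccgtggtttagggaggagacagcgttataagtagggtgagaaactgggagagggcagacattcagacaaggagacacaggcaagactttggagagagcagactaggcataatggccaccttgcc
Pdia2, chr17:26199038-26199337, minus strand: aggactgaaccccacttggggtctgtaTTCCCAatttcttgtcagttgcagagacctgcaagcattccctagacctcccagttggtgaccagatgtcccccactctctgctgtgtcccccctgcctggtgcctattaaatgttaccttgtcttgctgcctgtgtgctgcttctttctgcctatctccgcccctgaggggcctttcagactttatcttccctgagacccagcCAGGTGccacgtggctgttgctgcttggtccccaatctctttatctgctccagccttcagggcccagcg
Tmem184a, chr5:139813194-139813493, minus strand: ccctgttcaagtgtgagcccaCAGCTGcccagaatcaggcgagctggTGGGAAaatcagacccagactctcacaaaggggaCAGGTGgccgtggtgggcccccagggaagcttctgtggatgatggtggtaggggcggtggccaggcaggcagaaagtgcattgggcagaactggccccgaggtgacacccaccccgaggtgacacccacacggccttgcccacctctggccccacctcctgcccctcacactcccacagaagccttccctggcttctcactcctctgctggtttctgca
In Aqp12 the E-box began 51 bases and TTCCCA 39 bases before the start, so their first bases were 12 bases apart. In the printed Tmem184a promoter a CAGCTG and a CACCTG stood 26 and 34 bases from the TTCCCA core. The distances were 86 bases in Nupr1 and 204 bases in Pdia2. The other Tmem184a promoter (chr5:139814234-139814533), not printed, held both forms of E-box but no TTCCCA. With only the 150 bases before the start read, 1 of the 16 promoters, that of Aqp12, held both (6.25%). The share was 2.49% of all promoters, and 1 of 20 promoters of the left-out families held both. The GATA motif AGATAA was in 3 of the 16 promoters (18.8%, against 11.2% of all), the TATA box TATAAA in 3 (against 13.6%), the XBP1 motif GACGTG in 2 (against 6.38%), and the E-box CATATG, the NR5A2 motif AAGGTCA and the homeodomain motif TAATTA in 0. A match of this kind is a description of the letters and not a bound site, and no test was made on these shares.

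Differences between the groups in the 19 genes ran to 8.47-fold, with a median of 4.03-fold and a smallest of 2.32-fold. The median log2 difference (Pdx1cKO minus control) was −2.01, against −3.07 for the 26 probe sets of the left-out families and 0.03 for all probe sets with both controls at or above 100. Over all genes, limma called 0 lower and 0 higher at an adjusted p of 0.05, while 1005 genes (5.04%) were lower and 1054 (5.29%) higher at an unadjusted p of 0.05. Student's t-test on the same values called 7 lower and 3 higher after adjustment. The number of arrays limits the precision of every value below, and errors are the SD of log2 intensities over 3 Pdx1cKO and 2 control pancreata. A difference of group means on the log2 scale is called a log2 difference.

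**Figure D1:**
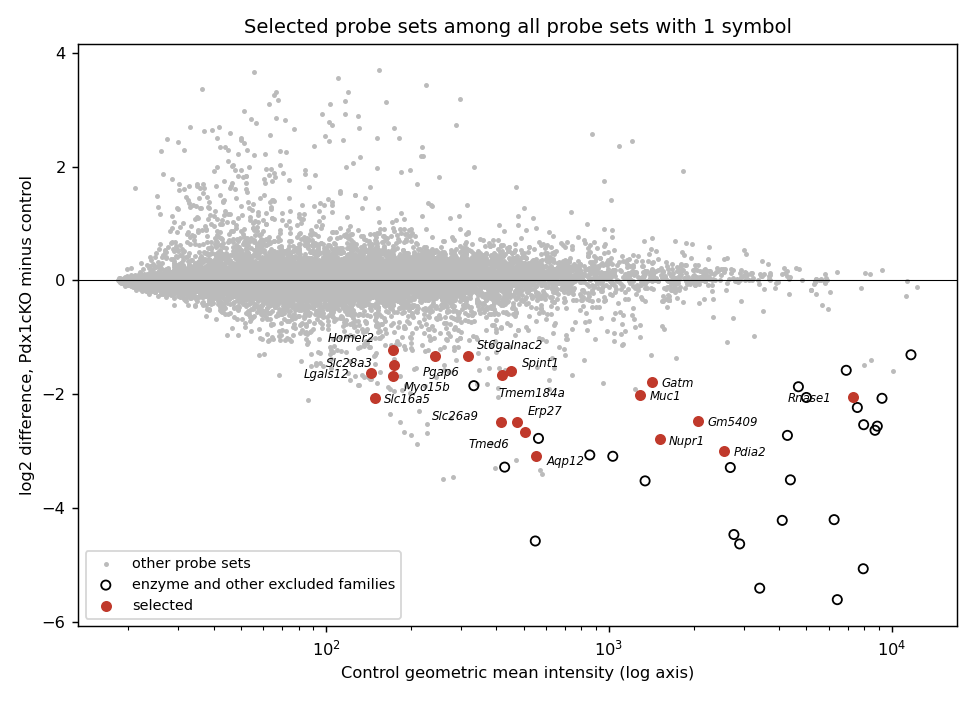
Log2 difference (Pdx1cKO minus control) of each probe set with 1 symbol against its geometric mean intensity in controls on a log axis. Red points are the 19 selected probe sets, between −3.08 and −1.21, open circles are the 26 of the left-out families, and grey points are all others.

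Among the genes of protein folding and export, Pdia2, a protein disulfide isomerase found mainly in pancreas (probe set 10449245, chromosome 17), had intensities of 196, 333 and 509 in Pdx1cKO pancreata, against 3842 and 1705 in controls. The geometric mean was 7.96-fold lower in Pdx1cKO pancreata (log2 difference −2.99, SD 0.691 in Pdx1cKO and 0.829 in control pancreata). The groups were far apart, yet the Pdx1cKO pancreata differed among themselves by more for Pdia2 than for any other of the 19 genes on the log2 scale. Erp27, a member of the same family that binds unfolded protein but lacks a catalytic site (10548884, chromosome 6), had 63.4, 94.7 and 102 in Pdx1cKO pancreata, against 867 and 259.9 in controls. Its log2 difference was −2.48 (SD 0.369 and 1.23), and it was −3.35 against control 1 alone and −1.61 against control 2 alone. Tmed6, a p24 protein of vesicle transport between endoplasmic reticulum and Golgi (10581518, chromosome 8), had 56.4, 82.7 and 109.5 in Pdx1cKO pancreata, against 907 and 280.3 in controls. In Erp27 and Tmed6 control 1 was more than 3-fold above control 2, and Pdx1cKO 3 was the highest of the mutant pancreata.

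The other genes of these pathways differed less between the groups, which the choice of Pdia2, Erp27 and Tmed6 on this difference itself favours. On the endoplasmic reticulum folding list, 16 of the 37 other genes measured were lower in every Pdx1cKO pancreas than in both controls and 7 were higher, against 11.7% and 12% of all genes. At an unadjusted p of 0.05, 8 were lower and 2 higher, against 5.04% and 5.29% of all genes (limma, 0 after adjustment), and the list's median log2 fold change was −0.16 against −0.00 for all genes. The 3 brightest other genes were P4hb, the general disulfide isomerase (log2 fold change −0.18), Ppib, a cyclophilin (−0.14), and Canx, a lectin chaperone (0.07). P4hb had 1898, 2099.9 and 2155 in Pdx1cKO pancreata, against 2425 and 2226 in controls. Pdia5, Erp44 and the other 5 isomerases measured lay between −0.19 and 0.39. Derl3, a factor of endoplasmic reticulum-associated degradation that was picked after its values were seen, had 89.5, 104 and 101 in Pdx1cKO pancreata, against 989 and 166 in controls, a log2 fold change of −2.05 and its highest Pdx1cKO value was over 0.5 of control 2.

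On the translocation and export list, 12 of 40 other genes were lower and 7 higher without overlap, against 11.7% and 12% of all genes, with a median of −0.00. The 3 brightest were the translocon subunits Ssr2 (log2 fold change 0.03), Ssr1 (0.08) and Ssr4 (−0.49). Ssr4 had 784, 913 and 913 in Pdx1cKO pancreata, against 1548 and 954 in controls. Of the 9 other p24 genes, 4 were lower and 2 higher without overlap (all genes 11.7% and 12%), with a median of −0.19. The lowest was Tmed11, at 20.9, 20.9 and 22.8 in Pdx1cKO pancreata, against 131 and 35.3 in controls, also picked after its values were seen.

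Rnase1, the secreted pancreatic ribonuclease (10419563, chromosome 14), had 1427, 1584 and 2489 in Pdx1cKO pancreata, against 9365 and 5699 in controls. Its log2 difference was −2.04 (SD 0.427 and 0.507). Of the 12 other secreted ribonucleases measured, 1 was lower and 1 higher without overlap (all genes 11.7% and 12%), and none lay below −0.40. Gm5409 (10537645, chromosome 6) is annotated as a pseudogene in the trypsinogen cluster, with Try10l as a synonym, between Gm5771 and Gm10334. It had 332, 391 and 405 in Pdx1cKO pancreata, against 2534 and 1693 in controls, a log2 difference of −2.47 (SD 0.153 and 0.411). Its probes may read its near-identical neighbours, so its value is uncertain as that of 1 gene. Rnase1 and Gm5409 passed the exclusion by their symbols only, so 2 of the 19 genes go against a description as lying outside enzyme families.

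Nupr1, a small chromatin-associated protein induced by cell stress and first found in pancreatitis (10567995, chromosome 7), had 188, 209 and 269 in Pdx1cKO pancreata, against 2267 and 1016 in controls. It was 6.92-fold lower in Pdx1cKO pancreata (log2 difference −2.79, SD 0.265 and 0.818). Tmem184a, a membrane protein found on the secretory granules of exocrine cells (10535174, chromosome 5), had 135, 149 and 114 in Pdx1cKO pancreata, against 495 and 353 in controls. Its log2 difference was −1.66 (SD 0.194 and 0.346), and its paralogues Tmem184b and Tmem184c had 0.27 and 0.28. Homer2, a scaffold that links receptors to calcium release channels (10565156, chromosome 7), had 68.2, 74.1 and 81.4 in Pdx1cKO pancreata, against 182 and 163 in controls. This was the smallest log2 difference of the 19 at −1.21 (SD 0.128 and 0.112), and both groups were tight. A further Homer2 probe set (10565152) had 35.7, 32.3 and 37.8 in Pdx1cKO pancreata, against 49.5 and 54.8 in controls, a log2 difference of −0.57 that did not meet the limits. Homer2 was the only gene of the 19 with more than 1 probe set among those with 1 symbol.

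The lists nearest to these genes were mixed. Of 17 genes of granule traffic and exocytosis, 7 were lower and 1 higher without overlap (all genes 11.7% and 12%), 4 were lower and 0 higher at an unadjusted p of 0.05 (all genes 5.04% and 5.29%), and the median log2 fold change was −0.22. Rab3d, a GTPase of the zymogen granule, had 206, 179.7 and 181 in Pdx1cKO pancreata, against 412 and 379 in controls (log2 fold change −1.07, SE 0.085). Vamp8, a granule SNARE, had a log2 fold change of −0.41 and Snap23, its partner at the plasma membrane, 0.30. Of 15 genes of secretagogue receptors and calcium release, 3 were lower without overlap (all genes 11.7%) and 2 at an unadjusted p of 0.05 (all genes 5.04%), with a median of −0.06. Cckar, the cholecystokinin receptor of acinar cells, had 136, 155 and 206 in Pdx1cKO pancreata, against 1235 and 305 in controls. Its log2 fold change was −1.91, whereas the calcium pump Atp2a2 and the G protein subunit Gnaq had 0.03 and 0.04.

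With both controls averaged, the largest difference of the 19 belonged to Aqp12, an aquaporin held inside acinar cells rather than at their surface (10348697, chromosome 1). It had 63.5, 47.8 and 92.0 in Pdx1cKO pancreata, against 1183 and 259 in controls, and was 8.47-fold lower in Pdx1cKO pancreata. Its controls differed by 4.56-fold, the widest gap of the 19, so that the log2 difference of −3.08 (SD 0.474 and 1.55) was −4.18 against control 1 and −1.99 against control 2. Against control 2 alone it was not the largest, since Slc26a9 (−3.24), Slc16a5 (−2.55), Pdia2 (−2.41) and others lay below it. Of the 10 other aquaporins, 2 were lower and 1 higher without overlap (all genes 11.7% and 12%), with a median of −0.13. Aqp3, the lowest of them, had 58.8, 55.7 and 57.1 in Pdx1cKO pancreata, against 59.6 in control 1 and 281 in control 2, so it was high only in the control with high stomach markers. On the ion and water transport list 3 of 16 other genes were lower without overlap, against 11.7% of all genes, and 0 passed at an unadjusted p of 0.05 in either direction, against 5.04% and 5.29% of all genes. The brightest were Ano1, a calcium-activated chloride channel (log2 fold change −0.37), Aqp1, a water channel of vessels and ducts (0.30), and Slc39a5, a zinc importer (−0.99). Slc39a5 had 139, 306 and 118 in Pdx1cKO pancreata, against 689.7 and 167 in controls, and its groups overlapped.

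Of the transporters in the plasma membrane, Slc26a9, a chloride and anion transporter known from stomach and airway (10349671, chromosome 1), had 72.7, 64.7 and 86.2 in Pdx1cKO pancreata, against 245 and 701 in controls. Its log2 difference was −2.48 (SD 0.208 and 1.07), with −1.72 against control 1 and −3.24 against control 2, the control with high stomach markers. The part of stomach RNA in these values was not tested. Slc16a5, a member of the monocarboxylate transporter family (10382532, chromosome 11), had 38.4, 34.6 and 33.8 in Pdx1cKO pancreata, against 106 and 208 in controls (log2 difference −2.06, SD 0.0984 in Pdx1cKO and 0.686 in control pancreata). Slc28a3, which takes up nucleosides together with sodium (10409713, chromosome 13), had 59.3, 62.7 and 65.1 in Pdx1cKO pancreata, against 199 and 153 in controls (−1.48, SD 0.0671 and 0.271). Most relatives of these 3 transporters differed less, which the choice of the 3 on this difference itself favours. The other Slc26 genes (10) ran between −0.39 and 0.32. The other monocarboxylate transporters (12) had a median of 0.10, but Slc16a3, a lactate exporter, had 232, 249.7 and 239.7 in Pdx1cKO pancreata, against 116 and 146 in controls (log2 difference 0.89). Of the nucleoside transporters, Slc28a1 and Slc28a2 had −0.02 and −0.65 without separating the groups.

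**Figure D2:**
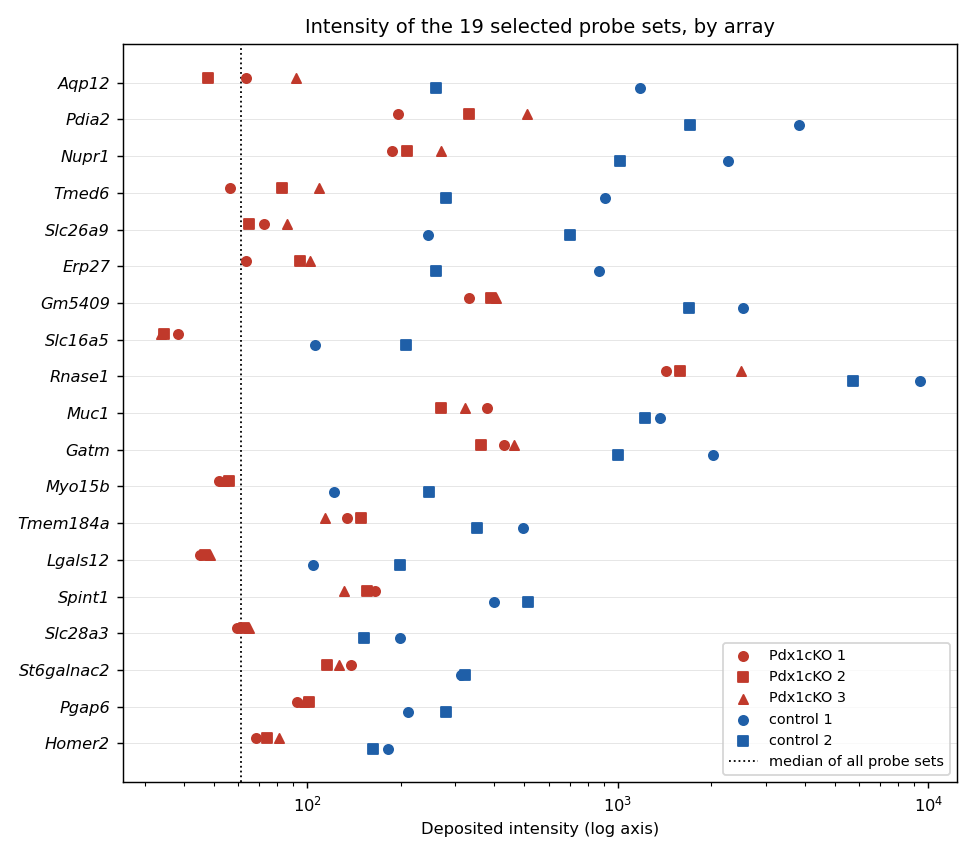
Deposited intensity of the 19 selected probe sets on each array, on a log axis, with Pdx1cKO pancreata in red and control pancreata in blue. The dotted line is the median of all probe sets (near 61), and for Aqp12 the Pdx1cKO pancreata lie at 47.8 to 92.0, left of both controls at 259 and 1183.

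Gatm, which carries out the first step of creatine synthesis and is abundant in pancreas and kidney (10487011, chromosome 2), had 429, 362 and 463 in Pdx1cKO pancreata, against 2029.9 and 1001 in controls. Its log2 difference was −1.78 (SD 0.182 and 0.721). Among 36 other genes of amino acid metabolism and transport, 10 were lower and 7 higher without overlap (all genes 11.7% and 12%), 3 were lower and 3 higher at an unadjusted p of 0.05 (all genes 5.04% and 5.29%), and the median was −0.06. Slc3a2, the heavy chain of amino acid exchangers (log2 fold change −0.09), Glul, glutamine synthetase (−0.53), and Slc38a2, a neutral amino acid transporter (0.02), were the brightest. Mat1a, the methionine adenosyltransferase of liver, was picked after its values were seen and had 2572, 1474 and 364 in Pdx1cKO pancreata, against 225 and 213 in controls. The liver marker list was higher in the same pancreata, and its part in the Mat1a value was not tested.

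Of the genes for surface proteins and glycans, Muc1, the transmembrane mucin of secretory and ductal surfaces (10493474, chromosome 3), had 379, 270.4 and 323 in Pdx1cKO pancreata, against 1369 and 1222 in controls. It was 4.03-fold lower in Pdx1cKO pancreata and almost equally so against each control, with log2 differences of −2.09 and −1.93. Spint1, which encodes the Kunitz-type inhibitor HAI-1 of epithelial membrane proteases (10474936, chromosome 2), had 166, 156 and 131 in Pdx1cKO pancreata, against 399 and 513 in controls (log2 difference −1.59, SD 0.174 and 0.256). Its relative Spint2 had 314, 281 and 266 in Pdx1cKO pancreata, against 550.0 and 653 in controls, a log2 difference of −1.07. St6galnac2, a Golgi enzyme that adds sialic acid to O-linked glycans (10393166, chromosome 11), had 138, 116 and 127 in Pdx1cKO pancreata, against 313 and 323 in controls. The St6galnac2 controls were the closest pair of the 19, and the log2 difference of −1.33 (SD 0.129 and 0.0331) was −1.31 against control 1 alone and −1.35 against control 2 alone. Pgap6, a phospholipase that acts on GPI-anchored proteins (10442932, chromosome 17), had 92.7, 101 and 97.5 in Pdx1cKO pancreata, against 211 and 279 in controls (−1.32, SD 0.0658 and 0.284).

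Muc1 stood on the list of duct and trunk epithelium, of which 6 of the 8 other genes were lower without overlap (all genes 11.7%), 5 were lower at an unadjusted p of 0.05 (all genes 5.04%) and 0 were higher. The median of these 8 was −0.77, the lowest of the lists. Cdh1, the epithelial cadherin, had 396, 344 and 314 in Pdx1cKO pancreata, against 567 and 899 in controls (log2 fold change −1.03, SE 0.251). Epcam, an epithelial adhesion protein, had −0.87, and Cldn4, a tight junction claudin, −0.97, with 199, 166 and 145 in Pdx1cKO pancreata, against 215 and 507 in controls. All 3 were higher in control 2, the control with high stomach markers, whose part in these values was not tested. Of 11 other mucins 3 were lower and 0 higher without overlap (all genes 11.7% and 12%), led by Muc5b with 38.8, 35.7 and 35.2 in Pdx1cKO pancreata, against 40.7 in control 1 and 559 in control 2.

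Lgals12, a galectin known from lipid droplets of fat cells (10465701, chromosome 19), had 45.0, 46.8 and 48.8 in Pdx1cKO pancreata, against 104 and 199 in controls. Its log2 difference was −1.62 (SD 0.0581 and 0.661), and of all 19 genes its lower control was the nearest to the floor of 100. Of 7 other galectins 1 was lower without overlap (all genes 11.7%), and Lgals4, the lowest, had 48.9, 47.4 and 60.2 in Pdx1cKO pancreata, against 47.4 and 1608 in controls, high in control 2 alone. Myo15b, which encodes an unconventional myosin (10382653, chromosome 11), had 51.8, 55.9 and 54.2 in Pdx1cKO pancreata, against 122 and 246 in controls (−1.68, SD 0.0547 and 0.719). The Pdx1cKO values of both genes were nearly constant and lay below the array median, whereas their controls differed by 1.91-fold in Lgals12 and 2.02-fold in Myo15b, with control 2 the higher.

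The genes divided by which control was higher. Control 1 was the higher of the controls in 12 of 19 genes, against 24 of 26 probe sets of the left-out families and 52.1% of probe sets at or above the floor. Pdx1cKO 3 was the highest mutant pancreas in 12 of 19 genes, against 23 of 26 and 40.8%. The 2 shares at or above the floor are lowered where the controls, or the highest mutants, tie exactly. An exact tie between any of the arrays was held by 52.6% of those probe sets, and not every such tie lowers a share. The chosen and left-out sets held 0, and the limits on intensity allow no tie between a control and a mutant. At or above the floor, control 1 was higher in 4047 probe sets and control 2 in 3245. Pdx1cKO 3 was the highest mutant there in 3170, Pdx1cKO 2 in 1673 and Pdx1cKO 1 in 1272. In the 12 genes with control 1 higher, which include Aqp12, Pdia2, Nupr1, Tmed6, Erp27, Gm5409 and Rnase1, Pdx1cKO 3 was the highest mutant in 10, and the median log2 difference was −2.25. In the 7 genes with control 2 higher, namely Slc26a9, Slc16a5, Myo15b, Lgals12, Spint1, St6galnac2 and Pgap6, Pdx1cKO 3 was the highest in 2, and the median was −1.62. The Pdx1cKO pancreata of these 7 genes lay within 1.08-fold to 1.33-fold of each other, against 1.10-fold to 2.60-fold in the 12 genes. The median of the acinar marker list had the first order, with control 1 above control 2 and Pdx1cKO 3 above the other mutants, and the medians of the stomach and intestine lists were highest in control 2, although single markers of all 3 lists departed from these orders. In 4 of the 7 genes (Slc26a9, Slc16a5, Myo15b and Lgals12) control 2 was more than 1.5-fold above control 1, and the part of stomach or intestine RNA in these values was not tested. Set against control 1 alone, the 7 genes had log2 differences between −1.72 and −1.12.

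**Figure D3:**
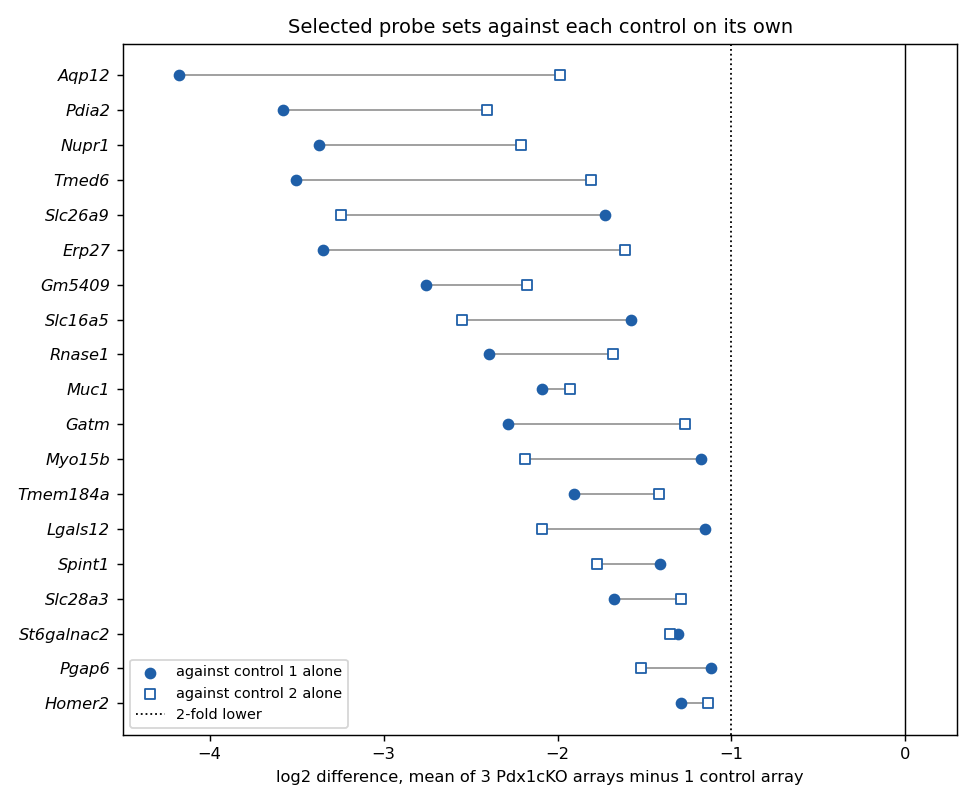
Log2 difference of the 19 selected probe sets between the mean of the 3 Pdx1cKO pancreata and each control on its own, against control 1 (filled circles) and control 2 (open squares). The pairs are widest for Aqp12 (−4.18 and −1.99) and nearly coincide for St6galnac2 and Muc1, and the dotted line marks 2-fold lower.

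Around the limits of the choice, values ran on without a gap. Inside the limit on the fold, the highest Pdx1cKO intensity was 0.499 of the lower control in Homer2 and 0.481 in Pgap6. Just outside it, Galnt7, which starts O-linked glycans, had a ratio of 0.501, with 100.2, 74.6 and 86.4 in Pdx1cKO pancreata, against 203 and 200.1 in controls. Ghrl, the ghrelin gene, had a ratio of 0.508, with 63.7, 69.2 and 58.3 in Pdx1cKO pancreata, against 148 and 136 in controls. Klk1b5, a kallikrein, met the fold limit, with 42.7, 40.9 and 46.9 in Pdx1cKO pancreata, against 237 and 96.4 in controls. Its value in control 2 lay just under the floor of 100.

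The chosen genes were spread over the genome. They lay on 12 chromosomes, with 3 of them (Slc16a5, Myo15b and St6galnac2) on chromosome 11. Of the 36 measured genes flanking them outside the trypsinogen cluster, 8 were lower and 6 higher without overlap, against 11.7% and 12% of all genes, with a median log2 difference of −0.02. The lowest flanking gene was Llgl2, a polarity protein next to Myo15b, at −1.03. The genes beside Gm5409 in the trypsinogen cluster were far lower, with Gm5771 at −3.28 and Prss2 at −2.72. Pdia2 and Pgap6 were close neighbours on chromosome 17, and Mrpl28 (0.03) and Axin1 (0.07) between them had almost equal values in both groups.

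Genes of the acinar and endocrine programmes give the setting for these values. Of 11 acinar transcription factors 5 were lower and 1 higher without overlap (all genes 11.7% and 12%), 4 were lower and 1 higher at an unadjusted p of 0.05 (all genes 5.04% and 5.29%), and the median was −0.39. The brightest, Xbp1, which drives the unfolded protein response, had 1612, 1612 and 1545 in Pdx1cKO pancreata, against 2733 and 1592 in controls, and Gata6 (0.33) and Creb3l1 (0.05) were not lower. Bhlha15, known as Mist1 and needed for granule organisation, was picked after its values were seen and had 61.6, 53.6 and 46.4 in Pdx1cKO pancreata, against 305 and 120.0 in controls. The PTF1 factors were also named after their values were seen. Rbpjl (log2 fold change −1.20) and Ptf1a (−0.54) were lower without overlap (all genes 11.7%). Tcf3 (0.28) was higher without overlap (all genes 12%), and Tcf12 (0.06) and Rbpj (0.05) overlapped between the groups. Of 25 endocrine genes 18 were lower without overlap (72.0%, all genes 11.7%) and 14 at an unadjusted p of 0.05 (all genes 5.04%), 0 were higher in either count, and the median was −0.47. Gcg (−1.09), Sst (−1.11) and Chga (−0.82), which encode glucagon, somatostatin and chromogranin A, were the brightest, and Gcg had 1508, 1127 and 1104 in Pdx1cKO pancreata, against 2594 and 2649.7 in controls. Over all 9 lists, 80 of 205 other genes were lower and 23 higher without overlap (all genes 11.7% and 12%), 46 were lower and 10 higher at an unadjusted p of 0.05 (all genes 5.04% and 5.29%), and 0 passed after adjustment over all genes (limma, smallest adjusted p = 0.183).

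**Figure D4:**
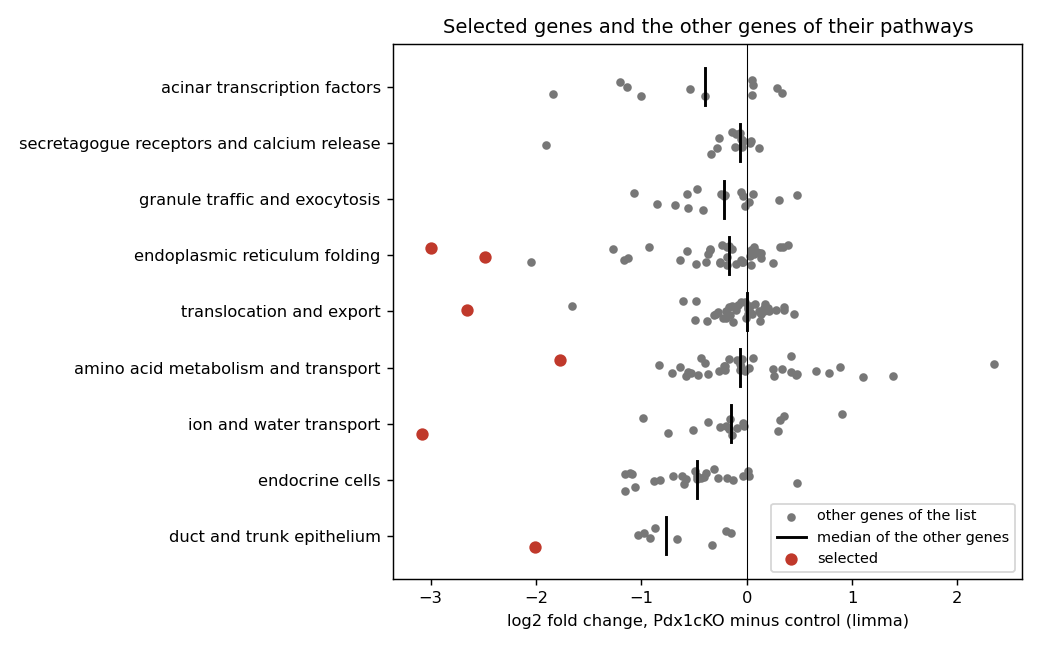
Log2 fold change (Pdx1cKO minus control, limma) of the genes on 9 pathway lists, with selected genes in red, the other genes in grey and the median of the other genes as a black bar. The medians lie between −0.77 for duct and trunk epithelium and −0.00 for translocation and export. Each selected gene lies below every other gene of its list, but the selected genes were chosen on this same difference.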

How the data were processed

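Total RNA of whole pancreata from 3 Pdx1cKO and 2 control mice was labelled and hybridised to Affymetrix Mouse Gene 1.0 ST arrays. The authors processed the arrays in GeneSpring GX and deposited normalized intensity values on a linear scale for 28853 probe sets. Normalization and probe summary were not given in the sources used here, nor were detection calls. The platform annotation gave 1 symbol to 21789 probe sets, several to 1621 and none here to 5443. No array column was left unmapped. Values were used as deposited, as log2 with no pseudocount, and probe sets of a gene were averaged on that scale for limma 3.58.1 (R 4.3.3, lmFit and eBayes, Benjamini-Hochberg over 19938 genes), which was tested on simulated data. Exactly equal values in at least 1 pair of arrays were found in 67.6% of probe sets and in 0 of the 19. The members and lists were chosen with earlier results of these data known. All members are named, with the 3 brightest other genes of each pathway list. Paralogue families and flanking genes were added after the data were seen. Of the list symbols, 24 were not measured here and 6 matched by a synonym. Protein sequences were not used here. Alternatives were scaling, gene filters, the limits of the choice, the t-test, a replicate block and leaving out each array. Python 3.11.15 was used otherwise.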

Additional observations from a re-analysis of the deposited data

How the results depend on the processing

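The number of probe sets chosen ran between 23 and 263 with 1 array left out, against 19 with all 5, and leaving out an array can only add to it. It was 263 without control 1, 83 without control 2 and 29 without Pdx1cKO 1. The probe sets added without control 1 included the stomach markers Gkn1, Gkn2, Anxa10 and Pgc and the intestine markers Alpi, Fabp2 and Vil1. All of these were highest in control 2, and the part of stomach or intestine RNA in the count was not tested. A limit of a 3-fold difference left 4 genes (Gm5409, Muc1, Nupr1 and Pdia2), a floor of 200 left 14, and with no floor Klk1b5 was added. Median scaling gave 20 and quantile normalization 22. The median log2 difference of the original 19 probe sets, held fixed, ran between −2.01 and −1.81 with 1 array left out. With 1 array left out, limma called between 0 and 2072 genes lower and between 0 and 1604 higher after adjustment (2072 and 995 without control 2, 1783 and 1604 without control 1, where the spread of the single control left is taken to equal that of the mutants). At an unadjusted p of 0.05 it called 638 to 3694 lower and 711 to 2958 higher, and 27 to 82 pathway genes lower, the last without control 2. The log2 fold change of Pdx1 ran between −1.28 without control 1 and −0.55 without control 2. Its value was higher in control 2, the control with high stomach markers, and their part in it was not tested. Student's t-test called 7 genes lower and 3 higher after adjustment. Genes above the median level alone gave 501 lower and 843 higher at an unadjusted p of 0.05. Fewer genes were tested there, so these counts do not compare directly with those over all genes. With the replicate number as a block over the samples numbered 1 and 2, 605 genes and 23 pathway genes were lower at an unadjusted p. The difference between controls 1 and 2 and that between Pdx1cKO 1 and 2 were almost uncorrelated (r = 0.0151 over 19938 genes). This is only 1 pair of differences, so it cannot tell whether samples with the same number shared a batch. Of the 14 genes with a promoter, 1 rather than 4 held both motifs in the 150 bases before the start. Protein features were not analysed here.

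The controls differed in acinar, stomach and intestine markers, and the log2 differences of the 19 genes ran between −4.18 and −1.12 against control 1 alone and between −3.24 and −1.13 against control 2 alone. Detection calls were not used here, and no value was judged against background.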
